A study of Homo sapiens with 21 samples.

Results

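The genes of cholesterol synthesis and uptake were described here in HK-2 cells, an immortalized human kidney proximal tubule line, after treatment with cyclosporine A, a calcineurin inhibitor used as an immunosuppressant and known for kidney toxicity. The set was a list of 31 named genes, set by their known place in the pathway, with earlier results of these data known but no measured value in the rule, among 23368 features in the mRNA count table. All 31 were found, *SC5D* under its older symbol SC5DL, and all 31 passed the filter on low counts, as did 12855 features in all. The list is a selection and does not cover the whole pathway.

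Messenger RNA was sequenced from 4 libraries of cells given 5 µg/mL cyclosporine A and from 4 libraries of cells given 0.1% ethanol as vehicle, both for 48 h. Small RNA was sequenced from 4 libraries of each treatment at the same dose and time. AGO2 PAR-CLIP, which sequences RNA crosslinked to the microRNA effector AGO2 in cells fed 4-thiouridine, was done after 24 h on 2 libraries with cyclosporine A and 2 with vehicle, and 1 further list came from an antibody to all Argonaute proteins, with no treatment in its labels. All cells were from 1 line and grew in a serum-free keratinocyte medium with epidermal growth factor and bovine pituitary extract. The labels do not say whether libraries came from separate cultures, so the p-values measure the spread between libraries, which may be technical.

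Total mRNA counts per library ranged from 3965431 to 5001669 with cyclosporine A and from 4289120 to 7041604 with vehicle. Levels are CPM (library-scaled counts, after TMM), which are shares of a library and not amounts per cell, and which are not divided by gene length, so they are compared between libraries and not between genes. In such bulk samples, fewer cells expressing a gene and less RNA per cell cannot be told apart. Of 12 proximal tubule markers, 5 passed the filter on low counts and *HNF4A* and *SLC22A6* had a count of 0 in every library; the 12 summed to 347 to 355 CPM with cyclosporine A and 250 to 287 CPM with vehicle, and of the 5 tested 3 fell and 1 rose, *MME*, which averaged 201 CPM with cyclosporine A and 60.3 CPM with vehicle. *PAX8*, a kidney epithelial transcription factor, averaged 954 ± 31.98 CPM with cyclosporine A and 833 ± 18.4 CPM with vehicle. The 6 kidney epithelial markers summed to 1697 to 1846 CPM with cyclosporine A and 1464 to 1544 CPM with vehicle, with 4 of the 5 tested higher; *CDH16*, a kidney cadherin of the same list, moved the other way and fell, averaging 3.26 ± 0.967 CPM with cyclosporine A and 50.001 ± 4.18 CPM with vehicle (log2 fold change -3.91 ± 0.15, edgeR adjusted p = 2.67e-31, where ± is the SD over 4 libraries for levels and the SE for fold changes). The 5 markers of later tubule segments summed to 0.92 to 1.85 CPM with cyclosporine A and 2.58 to 3.84 CPM with vehicle. The 3 podocyte, 3 endothelial and 4 immune markers each summed to under 1 CPM in every library. The 3 fibroblast markers summed to 5.13 to 6.67 CPM with cyclosporine A and 13.6 to 19.9 CPM with vehicle; the part of these marker changes in the results that follow was not tested. The marker calls are to be read against all 12855 genes tested, of which 33.3% rose and 33.5% fell.

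As background, cells make cholesterol from acetyl-CoA through mevalonate, the isoprenoid diphosphates, squalene and lanosterol. When sterols in the endoplasmic reticulum are low, the escort SCAP carries the transcription factor SREBP-2, encoded by *SREBF2*, to the Golgi, where proteases release its active part; the INSIG proteins hold the complex back when sterols are plentiful. SREBP-2 then drives most genes of the pathway, among them *INSIG1*, while the oxysterol receptors encoded by *NR1H2* and *NR1H3* drive sterol export.

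The transcripts of the pathway moved in both directions. With cyclosporine A, 7 of the 31 rose and 13 fell at an adjusted p under 0.05 (edgeR quasi-likelihood test, Benjamini-Hochberg over 12855 genes), and 11 did not pass. The 20 called genes are 64.5% of the list, and over all genes tested 66.9% were called, so the share of called genes is near the background and is not a result about the pathway. By direction, 22.6% of the list rose against a background of 33.3%, and 41.9% fell against a background of 33.5%. The CPM of the groups did not overlap for 18 of the 31 genes (58.1%), beside 57.9% of all genes tested. The changes were small: the median absolute log2 fold change was 0.27 over the list and 0.38 over all genes tested. *TM7SF2* was the 1 member of 31 (3.23%) that changed by 1 or more on the log2 scale, a size reached by 12.2% of all genes. The median log2 fold change of the list was -0.04, and that of all genes was -0.0022.

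**Figure D1:**
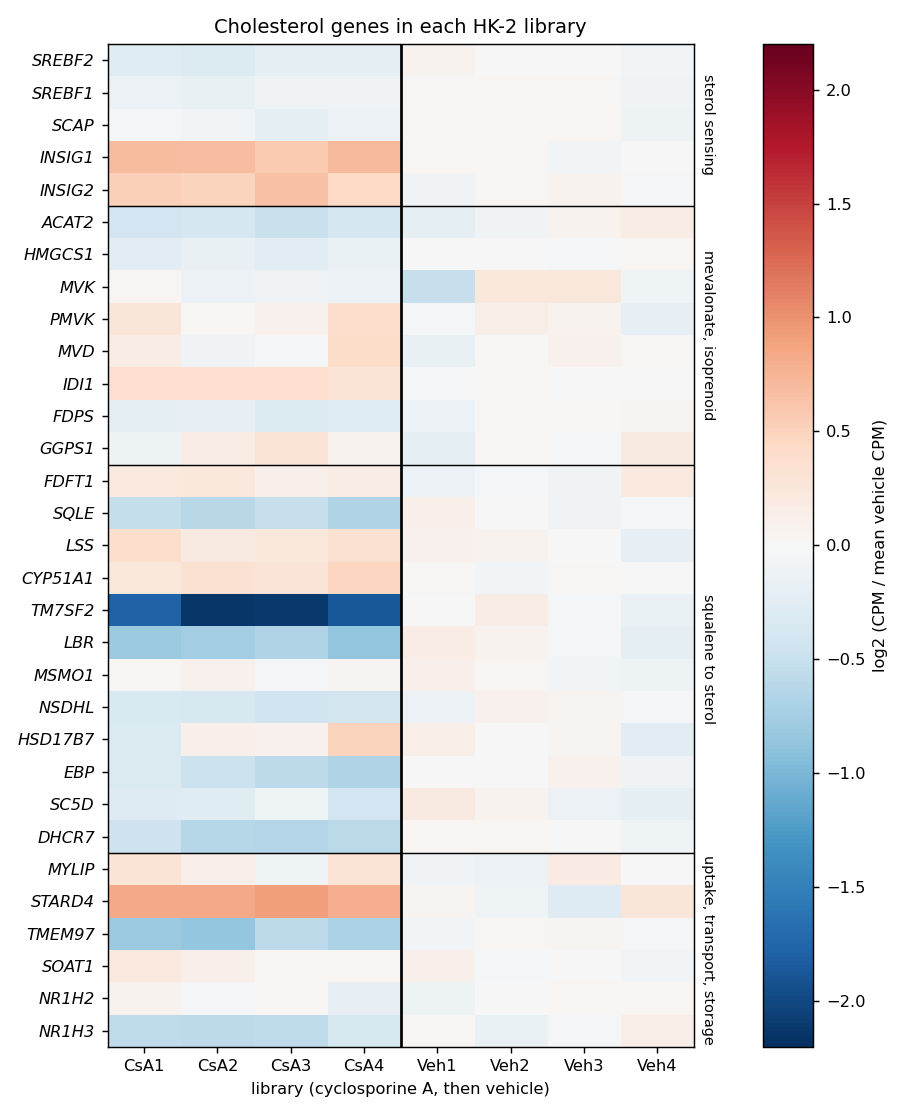
Each row is a cholesterol gene in pathway order and each column a library, with the 4 cyclosporine A libraries left of the 4 vehicle libraries; the colour is the log2 ratio of a library's CPM to the mean vehicle CPM. *INSIG1*, *INSIG2* and *STARD4* are red in all 4 cyclosporine A libraries, and *TM7SF2*, *LBR*, *TMEM97*, *DHCR7* and *SQLE* are blue in all 4.

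Among the 5 genes of sterol sensing and transcription, 2 rose, 1 fell and 2 did not pass. *INSIG1*, which encodes the sterol-dependent anchor of the SCAP complex and is itself a classic SREBP target, had 565, 555, 516 and 570.0 CPM in the cyclosporine A libraries, against 355, 352, 332 and 349 CPM in the vehicle libraries. Every cyclosporine A library lay above every vehicle library, and the transcript rose by a fold change of 1.59 (log2 fold change 0.67 ± 0.06, edgeR adjusted p = 9.96e-16). *INSIG2*, a second anchor protein with the same function, had 70.96, 69.4, 77.3 and 66.99 CPM in the cyclosporine A libraries, against 46.7, 50.1, 52.1 and 47.9 CPM in the vehicle libraries. It too rose with no overlap between the groups (log2 fold change 0.54 ± 0.08, edgeR adjusted p = 1.02e-08).

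*SREBF2* had 619, 606, 653 and 649 CPM in the cyclosporine A libraries, against 786, 745, 745 and 718 CPM in the vehicle libraries. The transcript of the main cholesterol transcription factor was thus lower in all 4 cyclosporine A libraries (log2 fold change -0.24 ± 0.06, edgeR adjusted p = 1.24e-04). *SREBF1*, which encodes SREBP-1, the family member tied more to fatty acid genes, ranged 476 to 507 CPM with cyclosporine A and 502 to 545 CPM with vehicle. *SCAP*, the escort, ranged 129 to 144 CPM with cyclosporine A and 138 to 154 CPM with vehicle. The groups overlapped for both genes, and neither passed the test over all 8 libraries (log2 fold change -0.11 ± 0.06, edgeR adjusted p = 0.0777 for *SREBF1*; log2 fold change -0.11 ± 0.06, edgeR adjusted p = 0.111 for *SCAP*). Vehicle library 4 was the lowest vehicle library for both, and without it both passed as lower, with adjusted p = 0.0198 for *SREBF1* and 0.0339 for *SCAP* in edgeR.

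Of the 8 enzymes from acetyl-CoA to the isoprenoid diphosphates, 1 rose, 3 fell and 4 did not pass, and their median log2 fold change was 0.04. *IDI1*, the isomerase that makes the allylic building block of isoprenoids, had 72.2, 71.8, 72.01 and 68.3 CPM in the cyclosporine A libraries, against 54.9, 56.7, 56.1 and 55.3 CPM in the vehicle libraries. It was the member of this segment that rose (log2 fold change 0.35 ± 0.07, edgeR adjusted p = 2.53e-05), with all cyclosporine A libraries above all vehicle libraries. *ACAT2*, the cytosolic thiolase that opens the route, fell without overlap of the groups, at 65.9 ± 2.40 CPM with cyclosporine A and 87.7 ± 9.34 CPM with vehicle (log2 fold change -0.40 ± 0.07, edgeR adjusted p = 4.15e-06). The gene overlaps *TCP1*, a chaperonin subunit, which rose, averaging 167 ± 5.28 CPM with cyclosporine A and 147 ± 17.01 CPM with vehicle (log2 fold change 0.18 ± 0.07, edgeR adjusted p = 0.0111); no source used here states a strand setting for the counting, and reads in the shared stretch cannot be told apart. *HMGCS1*, the cytosolic synthase that makes the precursor of mevalonate, had 288, 303, 285 and 305 CPM in the cyclosporine A libraries, against 339, 336, 332 and 349 CPM in the vehicle libraries. *FDPS*, which makes farnesyl diphosphate, ranged 214 to 231 CPM with cyclosporine A and 240.1 to 273 CPM with vehicle. Both fell, with small changes and no overlap between the groups (log2 fold change -0.20 ± 0.06, edgeR adjusted p = 0.0015 for *HMGCS1*; log2 fold change -0.24 ± 0.06, edgeR adjusted p = 4.09e-04 for *FDPS*). *FDPS* has processed pseudogenes that could share its reads, so its level is uncertain to that extent.

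The kinases and the decarboxylase that follow mevalonate did not pass. *MVK*, mevalonate kinase, differed by -0.04 on the log2 scale with a 95% interval of -0.31 to 0.23, and *PMVK*, the next kinase, by 0.19 with -0.06 to 0.45. *MVD*, the decarboxylase, differed by 0.13 (-0.02 to 0.28), and passed as higher without cyclosporine A library 2 (adjusted p = 0.0326) or 3 (adjusted p = 0.0302, edgeR). Without cyclosporine A library 4, the highest for *MVD* at 129 CPM, the difference was 0.035 (edgeR adjusted p = 0.689). Without vehicle library 1 it was 0.077 (edgeR adjusted p = 0.372). *GGPS1*, which makes the geranylgeranyl diphosphate used in protein prenylation, differed by 0.12 (-0.09 to 0.33). The interval of *MVK* includes a fall of the size of *HMGCS1* and that of *PMVK* a rise of the size of *IDI1*, while those of *MVD* and *GGPS1* leave out both.

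Of the 12 enzymes from squalene to cholesterol, 3 rose, 7 fell and 2 did not pass (83.3% called, beside 66.9% of all genes tested), with a median log2 fold change of -0.32. The share that fell was 58.3%, beside 33.5% of all genes tested, and 3 of 12 rose, beside 33.3%. Their summed level, in which long and abundant transcripts weigh more, was 1881, 1836, 1802 and 1812 CPM in the cyclosporine A libraries, against 2312, 2254, 2169 and 2111 CPM in the vehicle libraries. The sum was lower in every cyclosporine A library, and no test was made of it because it is a score over chosen genes. Within the segment the direction differed by step.

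At its head, *FDFT1*, squalene synthase, ranged 245 to 266 CPM with cyclosporine A and 208 to 262 CPM with vehicle. The ranges overlapped because vehicle library 4 was as high as the cyclosporine A libraries, although the fit called the gene higher (log2 fold change 0.19 ± 0.06, edgeR adjusted p = 0.00713). *SQLE*, the epoxidase that commits squalene to sterols, had 263, 246, 265 and 238 CPM in the cyclosporine A libraries, against 408, 377, 355 and 364 CPM in the vehicle libraries. The groups stood well apart and *SQLE* fell (log2 fold change -0.57 ± 0.06, edgeR adjusted p = 1.26e-12). *LSS*, which closes the ring to lanosterol, rose, averaging 127 ± 7.74 CPM with cyclosporine A and 104 ± 8.77 CPM with vehicle (log2 fold change 0.29 ± 0.07, edgeR adjusted p = 1.43e-04). *CYP51A1*, the cytochrome P450 that removes the first methyl group of lanosterol, had 174, 185, 179 and 203 CPM in the cyclosporine A libraries, against 149.8, 141, 149 and 147 CPM in the vehicle libraries. It also rose with no overlap (log2 fold change 0.33 ± 0.06, edgeR adjusted p = 3.10e-06), so the transcripts of *FDFT1*, *LSS* and *CYP51A1* were higher while that of *SQLE*, which acts between them, was lower.

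The step after *CYP51A1*, the reduction of the newly made double bond, can be carried out by 2 proteins, TM7SF2 and LBR, and both transcripts fell. *TM7SF2*, an endoplasmic reticulum sterol reductase, had 11.9, 9.28, 9.43 and 11.3 CPM in the cyclosporine A libraries, against 41.004, 46.01, 40.02 and 36.8 CPM in the vehicle libraries. The level fell to 0.256 of the vehicle level, the largest change among the 31 members (log2 fold change -1.97 ± 0.12, edgeR adjusted p = 4.00e-22). *LBR*, an inner nuclear membrane protein that carries the same reductase domain and also binds lamin B and chromatin, had 160.4, 166, 178 and 156 CPM in the cyclosporine A libraries, against 315, 297, 274 and 246 CPM in the vehicle libraries. No cyclosporine A library reached the lowest vehicle library (log2 fold change -0.78 ± 0.06, edgeR adjusted p = 4.40e-16).

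Among the demethylation enzymes, *NSDHL*, the decarboxylating dehydrogenase, fell, averaging 26.3 ± 0.939 CPM with cyclosporine A and 34.4 ± 2.36 CPM with vehicle (log2 fold change -0.38 ± 0.10, edgeR adjusted p = 5.07e-04). *MSMO1*, the methylsterol oxidase that acts just before it, ranged 314 to 342 CPM with cyclosporine A and 295 to 347 CPM with vehicle and differed by 0.04 on the log2 scale, with a 95% interval of -0.08 to 0.16 that leaves out a change of the size of *NSDHL*. *HSD17B7*, the keto-reductase of the complex, differed by 0.09 (-0.19 to 0.37). Its near copy *HSD17B7P2* averaged 18.1 ± 3.84 CPM with cyclosporine A and 18.5 ± 1.45 CPM with vehicle, and reads could be split between the pair.

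The final isomerase, desaturase and reductase all fell. *EBP*, the sterol isomerase that also forms part of the microsomal antiestrogen binding site, had 205, 184, 171 and 163 CPM in the cyclosporine A libraries, against 255, 255, 273 and 242 CPM in the vehicle libraries. The groups did not overlap (log2 fold change -0.50 ± 0.06, edgeR adjusted p = 5.17e-10). *DHCR7*, the last reductase on the branch through dehydrocholesterol, had 258, 231, 227 and 236 CPM in the cyclosporine A libraries, against 369, 369, 354 and 334 CPM in the vehicle libraries. It was lower in all 4 cyclosporine A libraries (log2 fold change -0.58 ± 0.06, edgeR adjusted p = 5.53e-13). *SC5D*, the desaturase between them, ranged 39.9 to 50.4 CPM with cyclosporine A and 46.5 to 61.7 CPM with vehicle, so the groups overlapped (log2 fold change -0.27 ± 0.09, edgeR adjusted p = 0.00492); without vehicle library 1 the edgeR adjusted p was 0.0613.

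**Figure D2:**
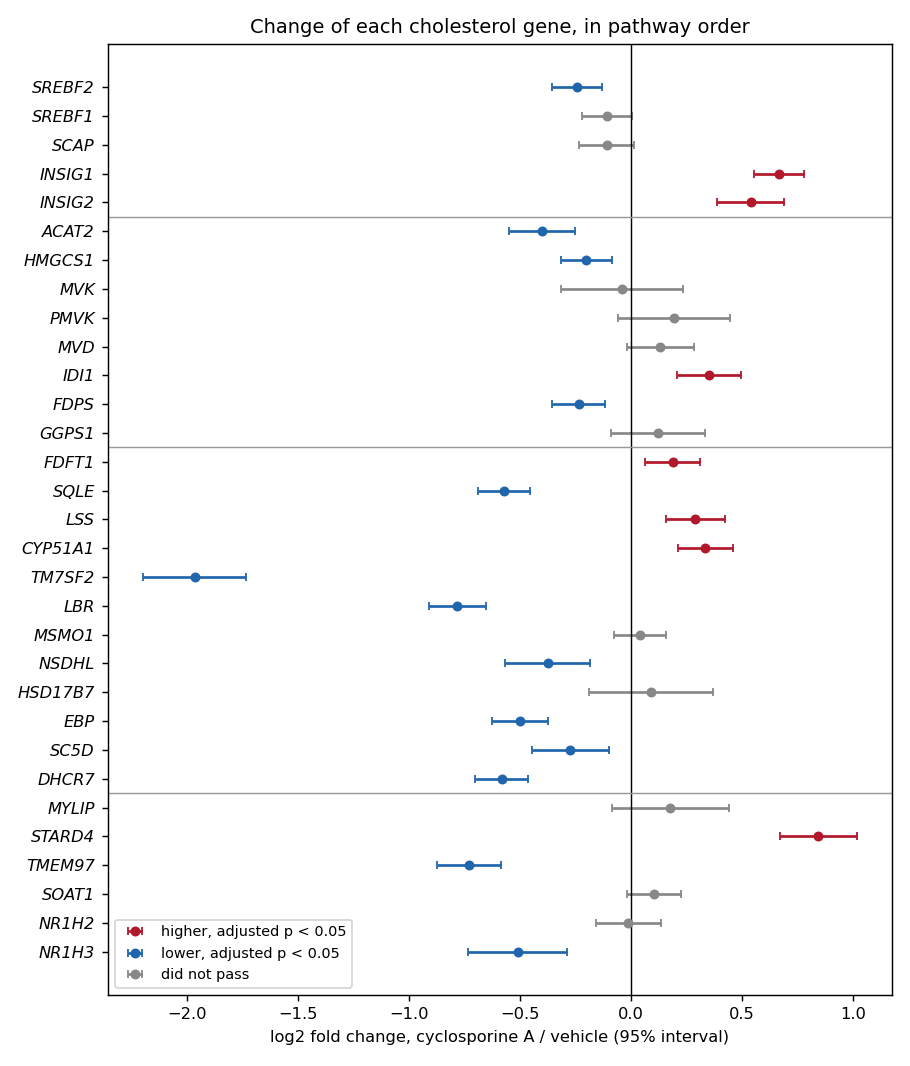
Points are log2 fold changes of cyclosporine A over vehicle with 95% intervals from the edgeR fit (n = 4 libraries a group), in pathway order from sensing at the top to uptake, transport and storage at the bottom; lines part the roles. *TM7SF2* lies near -1.97, well left of the other members, and the remaining 30 lie between -0.78 and 0.84.

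Of the 6 genes of uptake, transport, storage and oxysterol sensing, 1 rose, 2 fell and 3 did not pass. *STARD4*, a soluble carrier that moves cholesterol between membranes, had 61.7, 61.8, 65.3 and 60.1 CPM in the cyclosporine A libraries, against 36.3, 32.4, 28.6 and 41.5 CPM in the vehicle libraries. Its rise was the largest in the list and the groups did not overlap (log2 fold change 0.84 ± 0.09, edgeR adjusted p = 1.03e-12). *TMEM97*, a membrane protein of the endoplasmic reticulum that binds the lysosomal cholesterol exporter NPC1, had 56.8, 55.7, 67.6 and 61.9 CPM in the cyclosporine A libraries, against 96.1, 103, 105 and 98.2 CPM in the vehicle libraries. It was lower in all 4 cyclosporine A libraries (log2 fold change -0.73 ± 0.07, edgeR adjusted p = 2.52e-13). *NR1H3*, the oxysterol receptor LXR alpha, fell, averaging 17.9 ± 1.37 CPM with cyclosporine A and 25.5 ± 2.16 CPM with vehicle (log2 fold change -0.51 ± 0.11, edgeR adjusted p = 5.95e-05). *NR1H2*, which encodes LXR beta, did not pass, with a log2 difference of -0.01 and a 95% interval of -0.16 to 0.13. *MYLIP*, a ubiquitin ligase that degrades lipoprotein receptors, differed by 0.18 (-0.09 to 0.44). *SOAT1*, the enzyme that esterifies cholesterol for storage, differed by 0.10 (-0.02 to 0.22) and passed as higher without vehicle library 1 (adjusted p = 0.0353, edgeR).

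**Figure D3:**
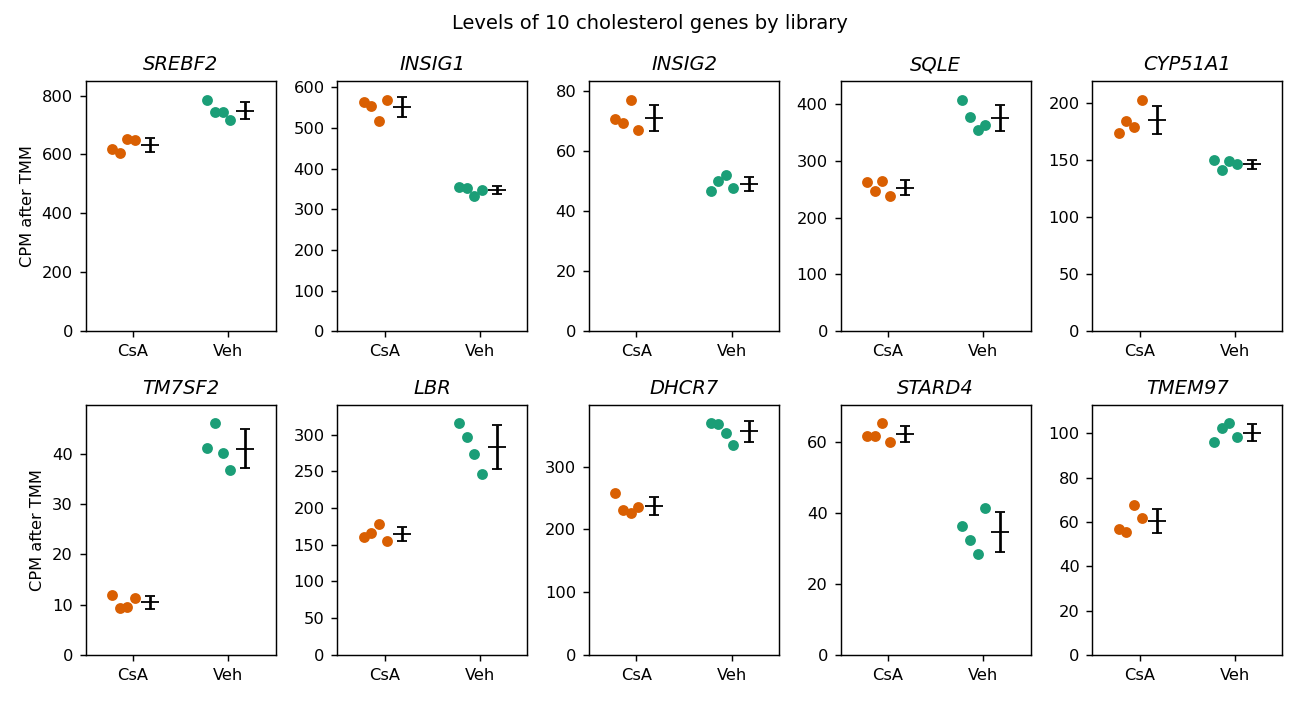
Points are CPM after TMM in single libraries for 10 genes, cyclosporine A left and vehicle right; the dash and bars beside them are the mean and SD (n = 4), and each vertical axis starts at 0. In all 10 panels the groups are apart, with *INSIG1*, *INSIG2*, *CYP51A1* and *STARD4* higher with cyclosporine A and the other 6 lower. All 10 are chosen from the 18 of 31 members (58.1%) whose groups did not overlap, so the separation follows from the choice. Over all genes tested, 57.9% did not overlap.

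In the authors' deposited table of the same comparison, the same 20 members had an adjusted p under 0.05 and the same signs. That table rests on the same libraries and adds no independent evidence.

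For the promoters of these genes, the RefSeq window from 250 bases before to 50 bases after the annotated start was searched (GRCh38.p14; 28 of the 31 genes matched an entry, 7 of them with more than 1 window). Shown are *SREBF2*, the gene of the transcription factor, then *STARD4* and *INSIG1*, which rose most, and *TM7SF2* and *LBR*, which fell most, each on the strand of its gene. Capitals mark the letters TCACNCCAC, the core of a sterol regulatory element, and CCAAT, the letters of an NF-Y box, on either strand (an opposite CCAAT reads ATTGG).
SREBF2 (chr22:41832855-41833154, plus strand): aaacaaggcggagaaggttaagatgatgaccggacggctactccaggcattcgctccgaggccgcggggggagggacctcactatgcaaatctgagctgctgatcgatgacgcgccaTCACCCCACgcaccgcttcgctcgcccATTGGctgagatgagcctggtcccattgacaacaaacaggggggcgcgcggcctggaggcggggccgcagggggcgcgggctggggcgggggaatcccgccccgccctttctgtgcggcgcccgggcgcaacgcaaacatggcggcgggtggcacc
STARD4 (chr5:111512486-111512785, minus strand): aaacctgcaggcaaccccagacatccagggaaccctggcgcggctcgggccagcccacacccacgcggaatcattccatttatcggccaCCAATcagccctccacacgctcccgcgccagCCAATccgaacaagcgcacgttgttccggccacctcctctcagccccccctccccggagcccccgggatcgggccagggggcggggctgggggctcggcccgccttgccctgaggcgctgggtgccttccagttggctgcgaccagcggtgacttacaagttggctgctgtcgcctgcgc
INSIG1 (chr7:155297628-155297927, plus strand): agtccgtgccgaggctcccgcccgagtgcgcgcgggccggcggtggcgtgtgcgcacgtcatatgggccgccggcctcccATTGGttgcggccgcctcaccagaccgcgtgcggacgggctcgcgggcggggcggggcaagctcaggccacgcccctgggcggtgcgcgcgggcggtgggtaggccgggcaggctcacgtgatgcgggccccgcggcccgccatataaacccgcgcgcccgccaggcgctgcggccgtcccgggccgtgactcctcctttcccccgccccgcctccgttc
TM7SF2 (chr11:65111622-65111921, plus strand): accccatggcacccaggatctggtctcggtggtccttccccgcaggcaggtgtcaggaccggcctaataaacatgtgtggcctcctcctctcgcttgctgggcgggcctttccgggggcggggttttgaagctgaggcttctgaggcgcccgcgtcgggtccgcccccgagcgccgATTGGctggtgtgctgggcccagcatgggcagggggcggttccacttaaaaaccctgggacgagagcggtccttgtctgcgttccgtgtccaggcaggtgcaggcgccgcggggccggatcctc
LBR (chr1:225428772-225429071, minus strand): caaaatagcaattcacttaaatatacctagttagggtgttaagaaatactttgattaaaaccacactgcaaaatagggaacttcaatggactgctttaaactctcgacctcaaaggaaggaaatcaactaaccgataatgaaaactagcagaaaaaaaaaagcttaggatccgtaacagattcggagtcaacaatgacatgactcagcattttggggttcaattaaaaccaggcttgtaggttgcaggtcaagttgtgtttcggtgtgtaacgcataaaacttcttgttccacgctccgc
The *SREBF2* window holds TCACCCCAC 133 bases before the start and an opposite-strand CCAAT 106 bases before it. *STARD4* has CCAAT 161 and 130 bases before its start, and *INSIG1* and *TM7SF2* have 1 opposite-strand CCAAT each, 170 and 74 bases before theirs. The *LBR* window holds none of the 4 motifs searched and has a GC content of 38.3%, beside 67.7% to 78.3% in the other 4.

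Over the list, TCACNCCAC was found in 1 of 28 promoters (3.57%) and in 1.55% of 9096 tested genes with an entry. CCAAT was found in 21 of 28 (75.0%) against 43.4% of tested genes. Counted by window, because genes with several starts have more chances, it was in 59.0% of 39 windows against 34.5% of all windows of tested genes. GGGCGG, the letters of a GC box, was in 26 of 28 (92.9% against 78.0%), and CACGTG, an E-box, in 4 of 28 (14.3% against 12.8%). Both strands were searched and overlapping matches were kept. CCAAT was in the promoters of 4 of 6 genes that rose, 10 of 11 that fell and 7 of 11 that did not pass. These are matches of letters in a short window, not binding sites, and no match says only that the letters are not in this window.

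The sterol transcription factors also host microRNAs: miR-33a lies in an intron of *SREBF2* and miR-33b in an intron of *SREBF1*, and both are known to act on *ABCA1* and other genes of sterol export. The mature 5p sequences from RefSeq (GRCh38.p14) are shown with the seed, bases 2 to 8, in capitals, together with the miR-27 pair, reported regulators of sterol genes.
miR-33a-5p: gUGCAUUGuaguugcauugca
miR-33b-5p: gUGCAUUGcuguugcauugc
miR-27a-3p: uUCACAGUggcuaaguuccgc
miR-27b-3p: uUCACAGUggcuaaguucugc
The miR-33 forms share the seed UGCAUUG and the miR-27 forms share UCACAGU.

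miR-33a-5p had 17.5, 11.7, 22.03 and 15.3 CPM in the cyclosporine A libraries, against 19.1, 14.7, 12.9 and 19.96 CPM in the vehicle libraries. The groups overlapped fully. The log2 difference was -0.0032 with a 95% interval of -0.41 to 0.40 (edgeR over 470 miRNAs, adjusted p = 0.991), and its sign changed between settings. The interval includes a fall of the size of the host *SREBF2*, so a difference from the host is not shown. miR-33b-5p had 2 to 13 counts per library with cyclosporine A and 2 to 8 with vehicle, below the filter. Its 3p partner averaged 3.11 ± 1.16 CPM with cyclosporine A and 1.84 ± 0.470 CPM with vehicle and did not pass (log2 fold change 0.74 ± 0.30, edgeR adjusted p = 0.136), although it did with a replicate block (adjusted p = 0.0378) and without cyclosporine A library 3 (adjusted p = 0.0283, edgeR). miR-33a-3p differed by 0.29 (-0.37 to 0.95).

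miR-27a-3p had 2779, 2674, 3055 and 2916 CPM in the cyclosporine A libraries, against 1969, 2159, 2051 and 2502 CPM in the vehicle libraries. It was higher in all 4 cyclosporine A libraries (log2 fold change 0.40 ± 0.11, edgeR adjusted p = 0.0235), and was the 1 of 10 listed miRNAs tested that passed, against a background of 11.3% of 470. The adjusted p was 0.0530 without vehicle library 1 and 0.0743 without vehicle library 3. miR-27b-3p, with the same seed, did not pass (log2 fold change -0.11 ± 0.11, edgeR adjusted p = 0.564). The miR-96, miR-182 and miR-183 cluster, reported to be driven by SREBP-2, differed by 0.18, 0.15 and -0.13 on the log2 scale for the 5p forms, and none of the 3 passed. miR-185-5p, a reported regulator of *SREBF2*, differed by 0.13, and miR-128-3p by -0.22; neither passed.

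In the AGO2 PAR-CLIP lists, 14 of the 31 genes (45.2%) had a cluster with cyclosporine A and 18 (58.1%) with vehicle, beside 42.0% and 52.5% of all tested genes. The cyclosporine A list has 36812 clusters and the vehicle list 56985, and each list pools 2 libraries, so these shares have no replicate error and no difference between treatments was tested. Altogether 22 genes had a cluster in either list and 10 in both. Of the 18 clusters with cyclosporine A, 10 lay on the strand of the gene and 5 on the other, and of the 29 with vehicle, 16 and 12; the rest could not be placed.

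Clusters in 3' UTRs, the usual place of microRNA sites, were few: 1 member in the cyclosporine A list and 2 in the vehicle list, beside 2.90% and 4.12% of tested genes. At the members, 8 clusters overlapped between the 2 AGO2 lists by 1 base or more. The sequences of the 3' UTR clusters are shown with 1 of these 8, in an *EBP* exon, and the 1 cluster with a seed match. They are given as listed, in hg19 and on the strand of the gene.
MSMO1 3' UTR, cyclosporine A (chr4:166264044-166264066): ctaaaggcttttcaaattacttg
MSMO1 3' UTR, vehicle (chr4:166263188-166263207): atgtcttctggctactaagt
HMGCS1 3' UTR, vehicle (chr5:43289787-43289804): tattttgatttgtacagt
EBP exon, cyclosporine A (chrX:48382296-48382316): catggctgttgtcaggtcgtg
EBP exon, vehicle (chrX:48382296-48382317): catggctgttgtcaggtcgtgc
INSIG1 intron, vehicle (chr7:155092846-155092865): gatgtgACAGGGTgtggaca
The MSMO1 sites differ between the lists. By the authors' score, the *EBP* cluster was in the upper 15.3% of the cyclosporine A list and 11.4% of the vehicle list. Shared clusters at *GGPS1* (1.56% and 1.51%) and *LSS* (7.98% and 11.3%) ranked higher. Those of *EBP*, *GGPS1* and *LSS* were in all 3 lists. Fewer members had a pan-Argonaute cluster (19.4%) than tested genes did (27.3%). Shared clusters at *GGPS1*, *HSD17B7*, *LSS*, *MVK* and *SCAP* lay on the strand opposite the gene, and those at *EBP*, *INSIG1* and *SREBF1* on its own strand. *INSIG1* had 1 cluster with cyclosporine A and 6 with vehicle, with 1 pair overlapping in an intron. Of the 47 clusters, 1 held a match to the seed of a miRNA with a mean of at least 1000 CPM in the vehicle libraries, the capitals ACAGGGT in the *INSIG1* intron, which pair with bases 2 to 8 of miR-10a-5p. Over whole lists, 4.18% of clusters with cyclosporine A and 4.31% with vehicle held such a match, for 49 miRNAs with 32 seeds. All 47 sequences were searched, also those not printed, and none held CAATGCA, the match to the miR-33 seed.

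Around the pathway, other gene lists also held changes in both directions, to be read against the 33.3% of all genes tested that rose and the 33.5% that fell. Of 11 tested genes of SREBP processing and sterol-regulated degradation, 3 rose and 7 fell (median log2 fold change -0.21). *ERLIN1*, a scaffold for degradation of sterol enzymes, fell, averaging 128 ± 6.37 CPM with cyclosporine A and 189 ± 11.3 CPM with vehicle (log2 fold change -0.56 ± 0.06, edgeR adjusted p = 1.29e-11). *MBTPS1*, the Golgi protease that makes the first cut in SREBP, fell, averaging 234 ± 8.85 CPM with cyclosporine A and 312 ± 3.10 CPM with vehicle (log2 fold change -0.42 ± 0.06, edgeR adjusted p = 5.18e-09). *PAQR3*, a Golgi anchor of the SCAP complex, rose, averaging 52.9 ± 5.12 CPM with cyclosporine A and 35.3 ± 2.61 CPM with vehicle (log2 fold change 0.58 ± 0.09, edgeR adjusted p = 4.89e-08).

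Of 12 fatty acid genes driven by SREBP, 2 rose and 7 fell (median -0.18). *FASN*, *SCD* and *MID1IP1* did not pass, with log2 differences of -0.017, 0.11 and 0.027. *ACACA* was 1 of the 2 that rose (log2 fold change 0.25 ± 0.06, edgeR adjusted p = 1.37e-04). The elongases *ELOVL6*, at 117 ± 10.999 CPM with cyclosporine A and 242 ± 24.6 CPM with vehicle (log2 fold change -1.05 ± 0.07, edgeR adjusted p = 2.73e-20), and *ELOVL5*, at 231 ± 6.23 CPM with cyclosporine A and 431 ± 26.7 CPM with vehicle (log2 fold change -0.90 ± 0.06, edgeR adjusted p = 2.30e-20), both fell. *ME1*, the malic enzyme that supplies NADPH, rose, averaging 78.03 ± 6.64 CPM with cyclosporine A and 36.5 ± 4.73 CPM with vehicle (log2 fold change 1.097 ± 0.08, edgeR adjusted p = 1.83e-17).

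On the export side, *ABCA1*, the pump that loads cholesterol onto lipid-poor apolipoprotein and a target of the oxysterol receptors, had 913, 970.5, 1002 and 873 CPM in the cyclosporine A libraries, against 287, 267, 262 and 247 CPM in the vehicle libraries. It rose to 3.53 times the vehicle level (log2 fold change 1.82 ± 0.06, edgeR adjusted p = 1.02e-33), while the receptor transcript *NR1H3* was lower. *PLTP*, a phospholipid transfer protein, fell, averaging 233 ± 4.14 CPM with cyclosporine A and 336 ± 16.5 CPM with vehicle (log2 fold change -0.53 ± 0.06, edgeR adjusted p = 6.56e-12), and *LPCAT3*, an acyltransferase of membrane phospholipids, fell with overlapping groups (log2 fold change -0.24 ± 0.08, edgeR adjusted p = 0.00574). Both are also known oxysterol receptor targets, and in all 1 of the 4 tested genes of that list rose and 2 fell; *ABCG1* and *ABCG4* had a count of 0 in every library.

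In lysosomal and intracellular sterol transport, 4 of 11 genes rose and 4 fell (median -0.02). *NCEH1*, which hydrolyses cholesteryl esters, fell, averaging 76.04 ± 3.93 CPM with cyclosporine A and 204 ± 7.01 CPM with vehicle (log2 fold change -1.42 ± 0.06, edgeR adjusted p = 2.45e-27). *CAV1*, the caveolar cholesterol-binding protein, fell, averaging 19.1 ± 3.01 CPM with cyclosporine A and 52.7 ± 4.47 CPM with vehicle (log2 fold change -1.45 ± 0.10, edgeR adjusted p = 3.84e-19). *OSBP*, which exchanges sterol for a phosphoinositide at Golgi contacts, rose, averaging 142 ± 10.7 CPM with cyclosporine A and 97.9 ± 0.321 CPM with vehicle (log2 fold change 0.53 ± 0.06, edgeR adjusted p = 1.42e-10).

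Of 6 tested lipoprotein receptors and adaptors, 3 rose and 1 fell (median 0.10). *LRP1*, a large endocytic receptor, rose, averaging 834 ± 20.6 CPM with cyclosporine A and 577 ± 45.5 CPM with vehicle (log2 fold change 0.53 ± 0.06, edgeR adjusted p = 7.33e-12). *SCARB1*, the receptor for high-density lipoprotein, rose by less (log2 fold change 0.20 ± 0.06, edgeR adjusted p = 0.00238), and *LRP8* fell with overlapping groups (log2 fold change -0.16 ± 0.06, edgeR adjusted p = 0.0281). *LRP2* (megalin) and *CD36* were below the filter on low counts.

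Of 10 tested genes that use isoprenoids for other ends, 6 rose and 1 fell (median 0.28). *COQ2*, of coenzyme Q synthesis, was the one that fell, averaging 11.1 ± 1.69 CPM with cyclosporine A and 18.2 ± 0.487 CPM with vehicle (log2 fold change -0.70 ± 0.13, edgeR adjusted p = 6.65e-06). *NUS1*, a subunit of the dolichol-forming prenyltransferase, rose (log2 fold change 0.43 ± 0.10, edgeR adjusted p = 2.56e-04), as did *RABGGTB*, a subunit of the enzyme that prenylates Rab proteins (log2 fold change 0.31 ± 0.08, edgeR adjusted p = 4.24e-04). Both tested genes of the oxysterol and ketone list fell. *CYP27A1*, the mitochondrial sterol hydroxylase, had a low level and fell, averaging 2.33 ± 1.21 CPM with cyclosporine A and 5.01 ± 0.684 CPM with vehicle (log2 fold change -1.11 ± 0.27, edgeR adjusted p = 3.18e-04). *ACAT1*, the mitochondrial thiolase, also fell, averaging 40.8 ± 1.36 CPM with cyclosporine A and 49.5 ± 3.60 CPM with vehicle (log2 fold change -0.29 ± 0.08, edgeR adjusted p = 0.00207).

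**Figure D4:**
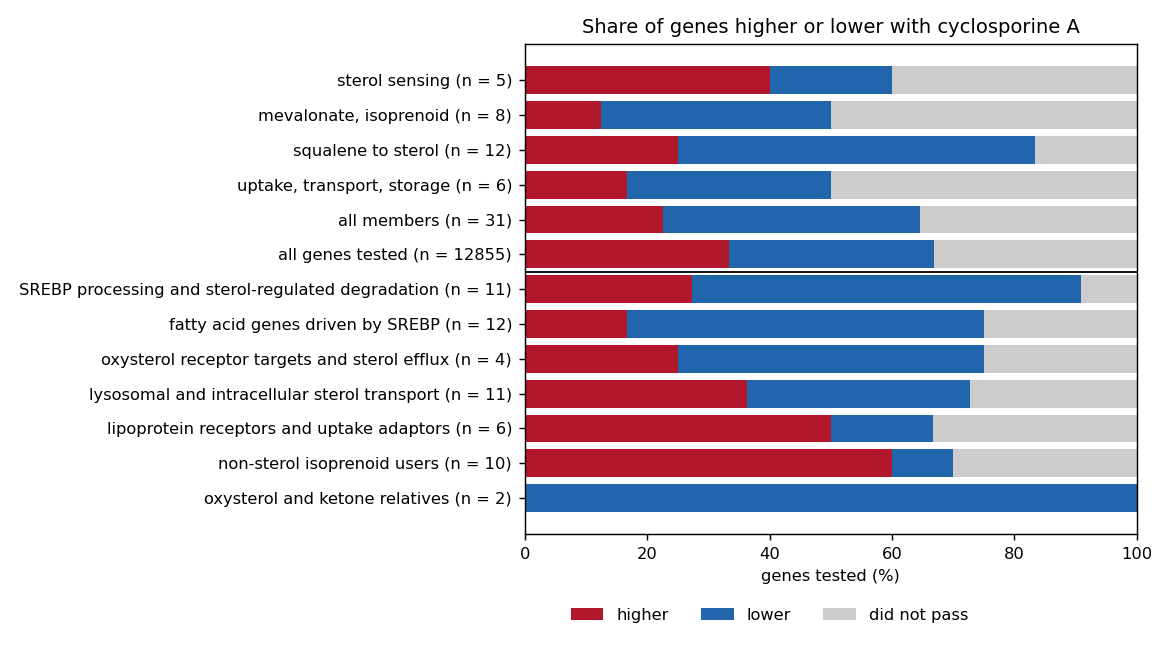
Bars give the percentage of tested genes that were higher (red), lower (blue) or did not pass (grey) with cyclosporine A at an adjusted p under 0.05; the line parts the roles, the full list and all genes tested from the other lists. The squalene and sterol enzymes have 58.3% lower genes, the full list 41.9% and all genes tested 33.5%.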

How the data were processed

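Raw counts for genes (8 mRNA libraries) and mature miRNAs (8 small RNA libraries) were used as deposited by the authors. The submitters' processing notes name hg19 and the tools HTSeq, DESeq2, TopHat, Bowtie, cutadapt and CASAVA 1.8.2, without their settings, and a strand setting is not given in the sources read. The authors' deposited tables of log2 fold changes and p-values were used only to compare calls; the authors' mean signal per gene in them was not used. The AGO2 lists hold a position, annotation, sequence and score for every cluster, per the file headers; the unit of the authors' score is not given, so it served only to rank clusters within a list. Coordinates were written 1-based. Sequences of the pan-Argonaute list were left out, because only 2692 of its 19306 matched their interval in length.

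The test was the edgeR 4.0.16 quasi-likelihood test (R 4.3.3) after filterByExpr and TMM, on treatment alone, with Benjamini-Hochberg adjustment over 12855 genes or 470 miRNAs and a threshold of 0.05. Total miRNA counts ranged from 6664231 to 9184278. The fit was also run on simulated counts. Few genes were changed there, whereas 66.9% were called here, so that run does not check the fit in this setting. The fold change is cyclosporine A over vehicle, with the SE implied by the F statistic. Alternatives were other size factors, DESeq2 1.42.0, limma 3.58.1 voom, no filter, a replicate block and leaving out each library. No pair of libraries agreed within sampling noise, the closest having a chi-square of 1.28 per degree of freedom in mRNA. In miRNA the pairs ranged from 31.7 to 242. The TMM factors of the cyclosporine A miRNA libraries were 1.17 and 1.15 for libraries 1 and 2, and 0.865 and 0.908 for libraries 3 and 4. Whether a batch underlies this was not tested. The named genes were all members, up to 3 called genes with the smallest p of each further list, and 11 listed miRNAs; markers were listed apart. Some other genes of the further lists were named beside them. The members and lists were chosen with earlier results of these data known. Some well-known genes of the pathway are not reported here.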

Additional observations from a re-analysis of the deposited data

Results flagged for a closer look

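Over 84 groups of 4 libraries (31 genes and the listed miRNAs, each treatment apart), 5 held a library that stood far from the other 3 by Dixon's criterion, which chance does in about 1 of 20 groups. *NR1H3* was 19.9 CPM in cyclosporine A library 4, where the nearest other library had 17.3 CPM. *IDI1* was 68.3 CPM in the same library, with 71.8 CPM as the nearest. *SREBF1* was 502 CPM in vehicle library 4, with 541 CPM as the nearest, and *SCAP* was 138 CPM in that library, with 152 CPM as the nearest. *FDPS* was 240.1 CPM in vehicle library 1, with 268 CPM as the nearest.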

How the results depend on the processing

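With RLE size factors, DESeq2, limma voom, no filter and a replicate block, 20 members were called each time, 7 higher and 13 lower; the calls over all genes numbered 8597 in the reported fit, 8486 with the replicate block and 7908 to 9110 over these settings. The numbers did not pair the mRNA libraries: the deviations of same-numbered libraries correlated at -0.084 to 0.033. Differently numbered mRNA libraries gave -0.082 to 0.144. For same-numbered miRNA libraries 1 to 4 the values were 0.042, 0.338, -0.06 and 0.153. Differently numbered miRNA libraries gave -0.283 to 0.179. Leaving out 1 library gave 20 to 22 called members (7 to 8 higher, 12 to 15 lower) and 8181 to 8593 calls over all genes. Of 31 members, 23 kept direction and call in all 13 settings. Signs turned for genes that were never called: *MVK* (0.059 and 0.054 without vehicle libraries 2 and 3), *HSD17B7* (-0.046 without cyclosporine A library 4) and *NR1H2* (0.0014 and 0.039 without cyclosporine A libraries 2 and 4, 0.0069 and 0.0061 without vehicle libraries 3 and 4). miR-33a-5p turned to 0.00062 with DESeq2, 0.0045 with no filter, 0.14 and 0.055 without cyclosporine A libraries 2 and 4, and 0.090 and 0.12 without vehicle libraries 1 and 4. Leaving out 1 library gave a range of -0.21 to 0.059 for *MVK*, -0.046 to 0.22 for *HSD17B7*, -0.050 to 0.039 for *NR1H2* and -0.13 to 0.14 for miR-33a-5p. The cause was not tested. With 3' UTR clusters alone, members with an AGO2 cluster numbered 1 with cyclosporine A and 2 with vehicle; with clusters at or above the median score, 6 with cyclosporine A and 13 with vehicle. Fewer clusters enter these counts by construction. Each list was cut at its own median score, which differed between the lists, and no difference between treatments was tested. With this cut, all tested genes also had a cluster less often with cyclosporine A than with vehicle. The share of members was below that of all tested genes with cyclosporine A and above it with vehicle. Low counts limit *MVK*, *PMVK*, *HSD17B7*, *MYLIP* and the miR-33 family. Called genes also had low counts: *TM7SF2* had 38 to 58 per library with cyclosporine A and 163 to 289 with vehicle. *NR1H3* had 70 to 84 with cyclosporine A and 118 to 182 with vehicle.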
